A study of Rattus norvegicus with 26 samples.

Results

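The normal development of the fetal rat gubernaculum over 2 days of gestation was followed by comparing gene expression in Long Evans (LE) embryos on days 17 and 19 of gestation (GD17 and GD19). The arrays were chosen by the strain and the day in their titles, which gave 5 arrays at GD17 and 6 at GD19, that is 11 of the 26 arrays in the series. LE is an outbred laboratory stock, and the labels give no treatment or engineered allele for its embryos. Each array holds RNA of litter-based organ pools, so a value is a mean over littermates, and the titles call the replicates biological. The series also holds 7 GD17 and 6 GD19 arrays of ORL, a rat strain with inherited undescended testes, and 2 GD19 arrays of unknown strain that entered no comparison. Values are log2 expression values of Affymetrix probe sets, so a difference of 1 is a 2-fold change.

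The gubernaculum is the cord that joins the fetal testis to the inguinal abdominal wall. It has a core of mesenchyme, which swells under the Leydig cell hormone INSL3, and an outer rim in which cremaster muscle forms from committed myoblasts. Myoblasts withdraw from division, fuse into myotubes and then switch on the contractile apparatus, the calcium release machinery and the synapse with motor nerves, under the MYOD family of transcription factors. Embryonic and perinatal myosins precede the adult fast forms. The mesenchyme takes its position along the body axis from Hox genes and is shaped by Wnt, BMP, hedgehog and retinoic acid signals.

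One array stood apart from its label and bears on all values below. The first principal component of the 11 LE arrays carried 34.1% of the variance. On it GD17 replicates 1, 2, 3 and 5 scored -40.1, -41.2, -36.1 and -30.9 and the 6 GD19 arrays scored 11.9 to 37.5. GD17 replicate 4 scored 3.73, between the groups and nearer to GD19. The labels give no reason for this, so the array was kept, and results are given with and without it where they differ. The liver transcripts Afp and Ttr, given below, also had their highest LE values on this array. Whether that bears on its position was not tested. Replicates 1 to 3 of each group were hybridized in batch 1 and the others, including that array, in batch 2. Arrays of the same LE group correlated between 0.965 and 0.992, and arrays of different groups between 0.944 and 0.983. No array was a copy of another (smallest root mean square difference between 2 arrays 0.306). The number of arrays, not a read depth, limits the precision.

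The arrays carried the markers of the labelled tissue. On all of them Wt1 and Pdgfra, both genes of fetal mesenchyme, were bright (Wt1 10.87 to 11.81, Pdgfra 12.66 to 13.39), as were the positional gene Hoxa10 and the muscle factors Myod1 and Myog described below. Hoxd10 ran from 5.88 to 6.90. The INSL3 receptor gene Rxfp2, Osr1 and Pax7 were not analysed here, since no probe set carried such a symbol alone. Esr1, the estrogen receptor, stood at the floor of the scale (2.16) on every LE array. Of 16 testis and gonad genes with a probe set, 13 were too dim to test, among them Amh, Nr5a1 and Insl3 at the floor on every LE array, and 0 of the other 3 changed.

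One measure of the arrays, computed from the same values, is given beside the results. Each array has a slope of its log2 values, centred by gene, against the log10 genomic span of the genes. It was 0.060 ± 0.031 (SD, n = 5) at GD17 and -0.039 ± 0.097 (SD, n = 6) at GD19. The difference was -0.099, with p = 0.0606 in a two-sided exact permutation test (0.0606 after Benjamini-Hochberg adjustment over the 2 strains), -0.058 in batch 1 and -0.143 in batch 2. In ORL the slope moved the other way, from -0.110 ± 0.070 (SD, n = 7) to 0.118 ± 0.048 (SD, n = 6), with p = 0.000583 in the exact permutation test (0.00117 adjusted). Counts with this slope as a covariate are given where they matter. In bulk tissue, more cells of a type and more RNA per cell cannot be told apart, here and in all that follows.

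Of 15746 probe sets bright enough to test, 2752 (17.5%) differed between GD17 and GD19 at an adjusted p under 0.05 (limma with batch as a covariate and Benjamini-Hochberg adjustment over all tested probe sets). Such a gene is called higher, lower, risen or fallen below, and ± after a difference is limma's standard error. By gene, each represented by its brightest probe set, 1086 of 9610 rose (11.3%) and 757 fell (7.88%), with a median difference of 0.02 over all genes. At least 2-fold changes were less even: 239 genes rose and 85 fell by that much. Without GD17 replicate 4, 1205 genes rose (12.5%) and 916 fell (9.53%). The difference had the same sign within both batches for 9036 of all 15746 tested probe sets and for 2745 of the 2752 called ones, which were chosen by a fit on both batches. Batch 2 alone, with 2 arrays at GD17 of which one was replicate 4, called 5 probe sets (0.0318%), although 2770 had an unadjusted p under 0.05.

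Skeletal muscle genes rose broadly. Of 128 genes tested in 7 lists that cover the contractile apparatus, its control and its energy supply, 99 rose and 1 fell, against 11.3% and 7.88% of all genes, with a median difference of 0.96 against 0.02. The lists share members, so the union is counted once. On 58 of the 128 genes every GD19 array stood above every GD17 array, which held for 4.47% of all genes. The mean level of the 128 genes ran from 8.56 to 8.95 on GD17 replicates 1, 2, 3 and 5, stood at 9.54 on replicate 4, and ran from 9.65 to 10.37 at GD19. Without replicate 4 the median difference was 1.13 and 102 rose. Within batch 1 the median was 0.94 and within batch 2 it was 1.03.

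**Figure D1:**
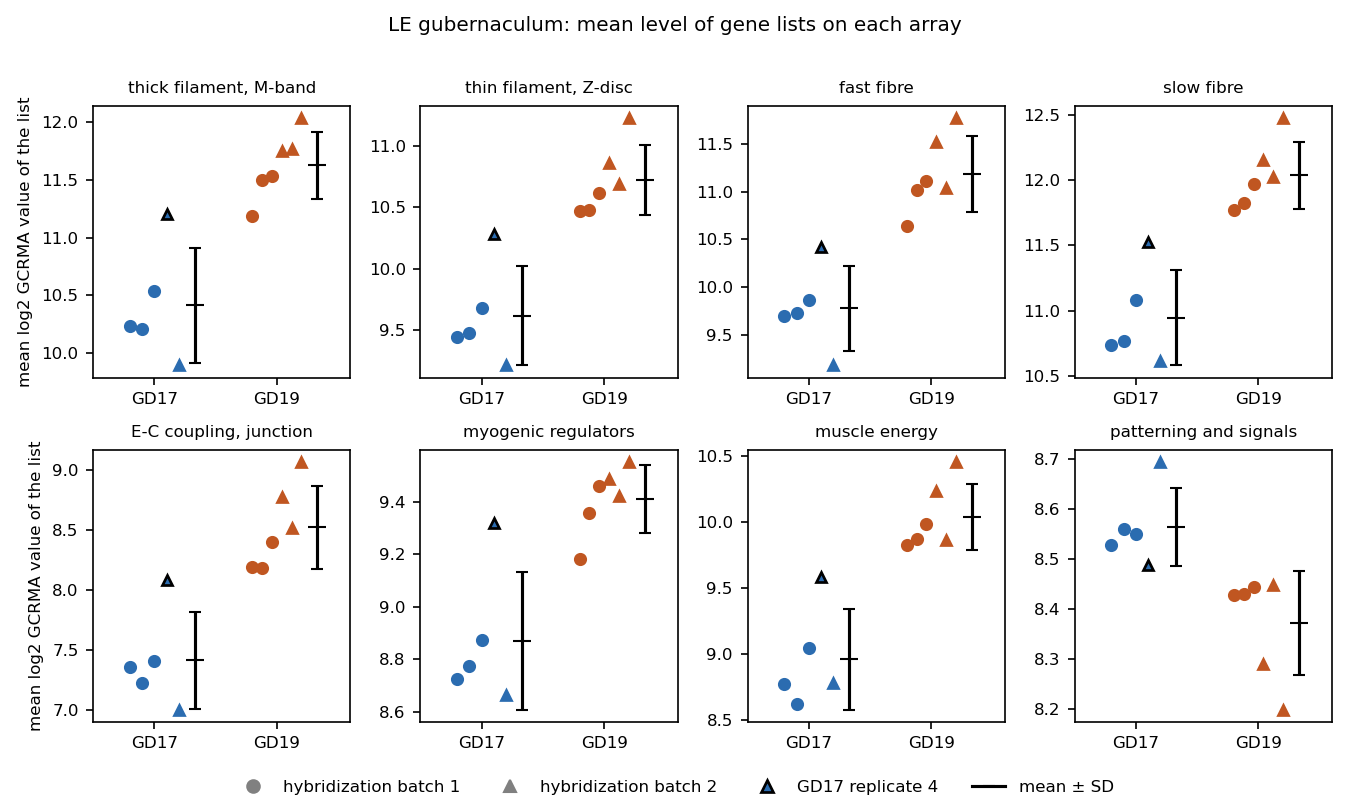
Mean log2 value of 8 groups of genes on each of the 11 LE arrays (y axis) at GD17 and GD19 (x axis), with the mean ± SD of each group of arrays beside the points; circles are hybridization batch 1, triangles batch 2, and the outlined triangle is GD17 replicate 4. The 7 muscle lists were higher at GD19, with GD17 replicate 4 closest to the GD19 arrays in each, and the 138 patterning and signalling genes were lower, from 8.49 to 8.69 at GD17 and 8.20 to 8.45 at GD19.

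Promoters of risen muscle genes are shown because these genes moved together, and the windows were searched for short motifs that MYOD family and MEF2 factors are known to bind. The sequences are the 250 bases before the annotated gene start, 5′ to 3′ on the gene's strand, from RefSeq (GRCr8). Capitals mark the E-box forms CAGCTG and, on either strand, CACCTG. They also mark the MEF2 motif, the binding sequence of the MEF2 factors that act with MYOD.
Chrng: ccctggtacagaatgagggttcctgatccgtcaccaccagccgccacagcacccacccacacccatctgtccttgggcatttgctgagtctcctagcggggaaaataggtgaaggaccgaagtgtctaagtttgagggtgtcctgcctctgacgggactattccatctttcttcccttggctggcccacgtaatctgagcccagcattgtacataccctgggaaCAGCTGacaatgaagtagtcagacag
Chrna1: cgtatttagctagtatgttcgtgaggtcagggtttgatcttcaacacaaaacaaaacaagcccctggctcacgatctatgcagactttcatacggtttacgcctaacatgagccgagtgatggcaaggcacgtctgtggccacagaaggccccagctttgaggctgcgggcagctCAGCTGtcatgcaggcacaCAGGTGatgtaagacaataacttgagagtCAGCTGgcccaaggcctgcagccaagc
Ckm: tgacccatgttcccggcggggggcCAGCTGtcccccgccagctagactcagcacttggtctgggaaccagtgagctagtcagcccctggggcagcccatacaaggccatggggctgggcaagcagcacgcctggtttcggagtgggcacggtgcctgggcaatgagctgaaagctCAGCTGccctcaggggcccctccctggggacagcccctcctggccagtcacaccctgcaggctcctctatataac
Cav3: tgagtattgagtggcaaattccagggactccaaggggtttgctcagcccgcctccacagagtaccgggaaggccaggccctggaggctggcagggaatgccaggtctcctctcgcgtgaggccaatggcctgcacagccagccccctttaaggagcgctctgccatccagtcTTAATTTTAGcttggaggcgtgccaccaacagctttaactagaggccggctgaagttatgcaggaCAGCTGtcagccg
Pgam2: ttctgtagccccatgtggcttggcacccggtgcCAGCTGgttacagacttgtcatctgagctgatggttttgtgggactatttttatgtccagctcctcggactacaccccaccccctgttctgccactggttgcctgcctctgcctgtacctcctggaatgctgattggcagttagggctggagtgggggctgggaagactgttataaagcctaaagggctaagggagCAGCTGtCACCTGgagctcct
Myoz1: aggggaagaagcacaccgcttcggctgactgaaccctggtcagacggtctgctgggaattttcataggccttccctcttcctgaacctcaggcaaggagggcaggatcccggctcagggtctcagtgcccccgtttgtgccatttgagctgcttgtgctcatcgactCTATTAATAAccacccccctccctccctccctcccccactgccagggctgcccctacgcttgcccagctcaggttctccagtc
The windows lie at chr9:95325734-95325983 (plus strand), chr3:78877354-78877603 (minus strand), chr1:88189211-88189460 (plus strand), chr4:147137743-147137992 (plus strand), chr14:84897875-84898124 (minus strand) and chr15:3693363-3693612 (plus strand), in the order printed. The copy of CAGCTG nearest the start began 26 bases before it in Chrng, 27 in Chrna1, 75 in Ckm, 13 in Cav3 and 21 in Pgam2. The MEF2 motif began 78 bases before the start in Cav3 and 83 in Myoz1, whose window held neither E-box form. These promoters were picked after their matches were seen. Over the 73 of the 99 risen muscle genes with a promoter entry, 25 held CAGCTG (34.2%) against 12.3% of 8046 genes tested on the arrays and 12% of 33469 promoters of the same length. CACCTG was in 26.0%, 13.5% and 15.9%, and the MEF2 motif in 15.1%, 1.49% and 2.96%. Other motifs were searched in the same windows, with shares in the same order. TATAAA was in 23.3%, 6.25% and 12.9%, and CArG (CCWWWWWWGG, W for A or T) in 6.85%, 1.21% and 1.5%. CACCC was in 68.5%, 56.2% and 49.2%, CCAAT in 37.0%, 35.8% and 34.0%, and AGATAA in 9.59%, 5.31% and 10.3%. A higher share was thus not confined to the E-box and MEF2 motifs. Both strands were searched, no marked matches overlap in these windows, and a match describes letters, not a bound site.

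Among the thick filament and M-band genes, 10 of 12 rose and 0 fell (median 1.07; 11 rose without GD17 replicate 4). Myh8, the perinatal myosin heavy chain, stood at 7.31, 7.32, 7.50, 9.85 and 6.10 in GD17 replicates 1 to 5, the order used for all such values. At GD19 it ran from 9.63 to 10.92 (median 10.55), a difference of 2.80 ± 0.46 (adjusted p 0.000348). GD17 replicate 4 lay inside the GD19 range, and without it the difference was 3.37. Myh3, the embryonic myosin heavy chain, was already near the top of the scale, at 13.99, 13.88, 14.23, 14.70 and 13.57, and ran from 14.30 to 14.76 (median 14.63) at GD19. Its difference was 0.53 ± 0.18 (adjusted p 0.0406), a call that was lost on leaving out any of GD17 replicates 1, 2 or 5 or GD19 replicates 1, 2, 3, 5 or 6. Myh7, the slow myosin heavy chain, differed by 0.66 ± 0.25 without passing (adjusted p 0.0692); without GD17 replicate 4 it was 0.92 (adjusted p 0.00561). The brightest probe set of Myh1, an adult fast myosin, went the other way, at -0.74 ± 0.29 (adjusted p 0.0795), and 2 of its 4 other probe sets were called lower. Myosin heavy chain genes are related in sequence, and whether any of these probe sets reads more than one of them was not tested. Myh2, another adult fast myosin, was too dim to test.

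Myosin light chains rose as well. Myl4, the embryonic light chain, stood at 11.87, 11.79, 12.41, 12.87 and 12.04 and then from 13.15 to 13.59 (median 13.35) at GD19, a difference of 1.14 ± 0.15 (adjusted p 0.000111). Myl3, the slow light chain, went from 8.87, 9.13, 9.62, 10.09 and 8.87 to values from 10.39 to 11.87 (median 10.82), a difference of 1.63 ± 0.22. The groups did not overlap for either gene. Mybpc1, the slow myosin-binding protein C, rose by 1.39 ± 0.21 with groups apart, and the M-band gene Myom2 by 1.80 ± 0.28, where GD17 replicate 4 overlapped GD19. Myl2, the regulatory light chain of slow and cardiac muscle, ran from 4.93 to 6.56 at GD17 and from 7.11 to 10.88 (median 8.55) at GD19. Its difference was 2.69 ± 0.53 (adjusted p 0.00136) and was unequal by batch, 1.31 in batch 1 and 4.44 in batch 2.

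In the thin filament and Z-disc, 35 of 42 genes rose and 0 fell (median 1.02). Skeletal actin Acta1 was among the brightest genes of the tissue at both ages, at 14.18, 13.98, 14.41, 14.71 and 14.13 and then from 14.85 to 15.11 (median 14.89). It still rose by 0.65 ± 0.11 (adjusted p 0.000302), with every GD19 array above every GD17 array. Myoz1, a Z-disc protein of fast fibres, had a larger rise. It stood at 6.28, 6.39, 5.96, 8.72 and 5.61 at GD17 and from 9.04 to 11.48 (median 9.76) at GD19, a difference of 3.51 ± 0.45 (adjusted p 0.000111), or 11.4-fold. The groups were apart, and without GD17 replicate 4 the difference was 4.02. The muscle LIM protein Csrp3 rose by 1.5 ± 0.19 and desmin (Des), the muscle intermediate filament, by 0.74 ± 0.16, both with groups apart. Neb, the giant thin filament ruler nebulin, differed by 0.70 ± 0.37 without passing (adjusted p 0.203).

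Fast and slow fibre genes rose together. Of 11 fast genes tested 9 rose (median 1.52), and of 12 slow or cardiac-type genes 9 rose (median 1.08); 0 fell in either list. Fast troponin I (Tnni2) stood at 11.05, 11.31, 11.67, 12.32 and 10.63 and then from 12.70 to 13.71 (median 13.02), and fast troponin T (Tnnt3) at 10.55, 10.71, 11.38, 12.38 and 10.99 and then from 12.62 to 12.93 (median 12.72). Their differences were 1.74 ± 0.26 and 1.54 ± 0.23. Slow troponin I (Tnni1) went from 12.14, 12.33, 12.69, 13.23 and 12.11 to values from 13.41 to 13.68 (median 13.53), a difference of 1.03 ± 0.15. All 3 had separate groups. Fast troponin C (Tnnc2) rose by 0.90 ± 0.13 and Casq2, the calcium store protein of slow and cardiac muscle, by 1.33 ± 0.18.

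**Figure D2:**
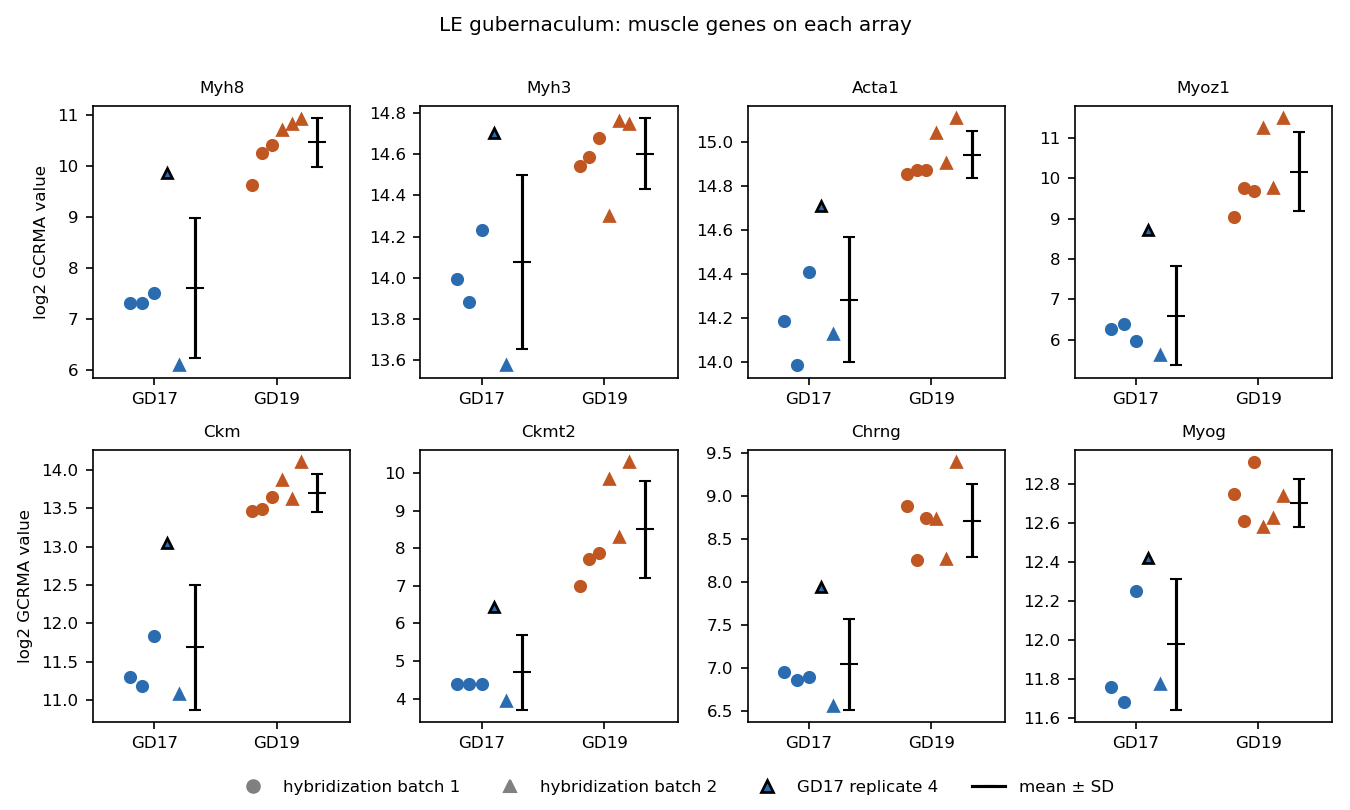
Log2 values (y axis) of 8 muscle genes on each LE array at GD17 and GD19 (x axis), with mean ± SD beside the points; circles are batch 1, triangles batch 2, and the outlined triangle is GD17 replicate 4. Groups were apart for Acta1, Myoz1, Ckm, Ckmt2, Chrng and Myog, while GD17 replicate 4 reached into the GD19 range for Myh8 and Myh3.

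Genes of excitation-contraction coupling and of the neuromuscular junction rose in 25 of 31 cases (median 1.10). The fetal acetylcholine receptor subunit gene Chrng stood at 6.95, 6.86, 6.90, 7.94 and 6.55 at GD17 and from 8.26 to 9.40 (median 8.74) at GD19, a difference of 1.66 ± 0.23 (adjusted p 0.000116). The alpha subunit Chrna1 went from 9.06, 8.86, 9.35, 9.75 and 8.84 to values from 9.89 to 10.35 (median 10.15), a difference of 0.97 ± 0.13. Groups were apart for both. Chrne, the subunit that replaces the fetal one in adult synapses, was too dim to test. Caveolin 3 (Cav3), a membrane protein of muscle cells, rose by 1.67 ± 0.22, and Sgca, the alpha sarcoglycan of the complex that anchors the membrane, by 1.76 ± 0.24. The single member that fell was Asph, at -0.67 ± 0.16 (adjusted p 0.00588), a gene that encodes both the calcium release protein junctin and a hydroxylase made in many cells; it was not called with the span slope as a covariate (adjusted p 0.0519).

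Of 19 myogenic regulators and precursor genes tested, 12 rose and 0 fell (median 0.63). Myogenin (Myog), which drives terminal differentiation, was at 11.76, 11.69, 12.25, 12.42 and 11.78 and then from 12.58 to 12.91 (median 12.69), a difference of 0.73 ± 0.11 (adjusted p 0.000225) with groups apart. Myod1, the commitment factor, was at 9.98, 9.45, 10.10, 10.54 and 9.85 and then from 10.48 to 10.62 (median 10.54), a difference of 0.54 ± 0.12 (adjusted p 0.00372), with GD17 replicate 4 inside the narrow GD19 range. Myf6, the latest acting of the family, had the largest difference of the 3. It rose from 8.83, 9.09, 9.05, 10.68 and 9.07 to values from 10.50 to 11.03 (median 10.86), by 1.47 ± 0.23, and again GD17 replicate 4 overlapped GD19. Mymk, which encodes the fusion protein myomaker, rose by 0.91 ± 0.15, and the myoblast cadherin Cdh15 by 0.67 ± 0.13.

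Muscle energy genes rose in 18 of 25 cases and fell in 0 (median 0.87). Muscle creatine kinase (Ckm) stood at 11.31, 11.18, 11.84, 13.05 and 11.08 at GD17 and from 13.46 to 14.10 (median 13.64) at GD19, a difference of 1.99 ± 0.27 (adjusted p 0.000111). The mitochondrial creatine kinase Ckmt2 went from 4.38, 4.38, 4.38, 6.45 and 3.94 to values from 7.01 to 10.28 (median 8.09), a difference of 3.71 ± 0.53 or 13.1-fold. In both genes the groups were apart, with replicate 4 the highest of the GD17 arrays. The glycolytic enzymes Eno3 and Pgam2, in their muscle forms, rose by 1.61 ± 0.20 and 1.79 ± 0.22, the muscle cytochrome oxidase subunit Cox6a2 by 1.74 ± 0.23, and the AMP deaminase Ampd1 by 2.14 ± 0.30. Genes of the respiratory chain that all tissues share were counted apart. Of 56 oxidative phosphorylation genes 20 rose and 0 fell, with a median of 0.19, against 11.3% and 7.88% of all genes. With the span slope as a covariate 6 rose, where 7.33% of all genes rose. Without GD19 replicate 6, 13 rose. The complex I subunit Ndufs3 rose by 0.53 ± 0.11 with groups apart, and the complex III iron-sulfur gene Uqcrfs1 by 0.43 ± 0.10.

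Patterning and signalling genes fell more often than they rose. In 5 lists of Hox genes, mesenchymal patterning factors and Wnt, BMP and TGF-beta, and hedgehog, retinoic acid and Notch genes, 40 of 138 fell and 14 rose, where 7.88% of all genes fell and 11.3% rose. The median was -0.19, and it was -0.07 in batch 1 and -0.23 in batch 2. Groups were apart for 14 lower and 2 higher genes (background 3.06% and 4.47%). Without GD17 replicate 4, 43 fell and 18 rose, and without any one of GD17 replicates 1, 2, 3 or 5 or GD19 replicate 2, 9 rose.

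The Hox genes did not move as 1 group. Of 15 tested, with their MEIS and PBX partners, 4 rose and 5 fell. The count of risen genes was 1 without any one of GD17 replicates 1, 2, 3 or 5 or GD19 replicates 1 or 2 and 2 without GD19 replicate 3 or 5, and 3 fell without GD17 replicate 5. Hoxa10, which the gubernaculum is known to need for testis descent, stood at 11.51, 11.54, 11.63, 11.29 and 11.67 at GD17 and from 10.78 to 11.20 (median 11.12) at GD19. It fell by 0.46 ± 0.09 (adjusted p 0.00115), a small change that was larger than the spread, since the groups did not overlap. Its partner Meis2 fell by 0.53 ± 0.10. Hoxd8 went the other way, from 8.74, 8.68, 8.92, 9.66 and 8.93 to values from 9.63 to 10.03 (median 9.84), a difference of 0.83 ± 0.13, with GD17 replicate 4 inside the GD19 range.

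Of 22 mesenchymal patterning factors 8 fell and 2 rose (median -0.30). Twist1, which keeps mesenchyme undifferentiated and opposes MYOD, stood at 10.37, 10.53, 10.46, 9.79 and 10.74 and then from 8.94 to 9.61 (median 9.44), a difference of -1.02 ± 0.15 (adjusted p 0.000166). Foxp2, a forkhead repressor, went from 7.09, 6.97, 6.97, 6.25 and 6.73 to values from 5.44 to 6.20 (median 5.77), a difference of -1.01 ± 0.19. Both had separate groups, as did Tbx18, a T-box factor of urogenital mesenchyme (-0.66 ± 0.15). The 2 that rose were Alx1 (1.06 ± 0.21) and Isl1 (0.63 ± 0.14), homeobox genes, and for each GD17 replicate 4 lay inside the GD19 range.

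Wnt pathway genes fell in 12 and rose in 4 of 41 cases (median -0.13). The ligand Wnt4, which acts in gonad and muscle development, was bright at GD17, at 12.09, 11.90, 11.58, 10.86 and 12.28, and ran from 9.67 to 10.74 (median 10.55) at GD19. Its difference was -1.33 ± 0.23 (adjusted p 0.000543), with groups apart. The Wnt antagonist Apcdd1 stood at 9.84, 9.63, 9.59, 8.97 and 10.50 and then from 7.56 to 8.94 (median 8.53), a difference of -1.29 ± 0.24, and the nuclear effector Lef1 differed by -0.55 ± 0.12, both with groups apart. Secreted antagonists moved in both directions: Sfrp2 fell by 0.71 ± 0.13, while Frzb rose by 1.12 ± 0.17 and Wif1 by 0.78 ± 0.20. Wnt5a, a ligand of non-canonical signalling, was at 8.13, 8.34, 8.58, 8.0 and 8.78 and then from 6.58 to 8.28 (median 7.76), a difference of -0.67 ± 0.24 that did not pass (adjusted p 0.0608).

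Of 40 BMP and TGF-beta genes 8 fell and 3 rose (median -0.12), and 5 rose without GD17 replicate 4. Bmp3, a ligand that opposes other BMPs, stood at 7.36, 8.10, 6.93, 7.12 and 7.23 and then from 5.81 to 6.54 (median 5.95), a difference of -1.29 ± 0.23 (adjusted p 0.000704). Inhba, the activin A subunit, went from 7.47, 7.31, 7.65, 7.16 and 7.99 to values from 5.70 to 6.98 (median 6.26), a difference of -1.25 ± 0.21. Both had separate groups. Follistatin (Fst), which binds activin, rose by 0.79 ± 0.15, and the inhibitory Smad7 fell by 0.64 ± 0.14. Bmp4 depended on 1 array. It stood at 9.76, 10.09, 9.78, 8.80 and 10.16 and then from 9.06 to 9.43 (median 9.37), a difference of -0.44 ± 0.17 that did not pass (adjusted p 0.0814). GD17 replicate 4 was below all GD19 arrays and the other GD17 arrays were above all of them, and without GD17 replicate 4 it fell by 0.70 (adjusted p 6.56e-05).

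In the list of hedgehog, retinoic acid and Notch genes, 7 of 20 fell and 1 rose, the retinoid receptor gene Rxrg (median -0.22); 3 rose without GD17 replicate 4, and 0 without any other single LE array but GD19 replicate 1. Stra6, the cell's retinol importer, stood at 10.96, 10.93, 10.52, 9.86 and 10.86 and then from 9.33 to 9.92 (median 9.66), a difference of -0.98 ± 0.17 (adjusted p 0.000417); 3 of its 3 other probe sets were called the same way. The binding protein Crabp1 differed by -1.05 ± 0.23, the retinoic acid synthesizing enzyme Aldh1a2 by -0.58 ± 0.14 and the degrading enzyme Cyp26b1 by -0.51 ± 0.12. Both the making and the clearing enzyme were thus lower, though Aldh1a2 was not called with the span slope as a covariate (adjusted p 0.0566). Gli2, the main activator of hedgehog targets, was at 8.57, 8.79, 8.52, 8.66 and 8.60 and then from 7.66 to 8.39 (median 8.08), a difference of -0.57 ± 0.13 with groups apart.

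**Figure D3:**
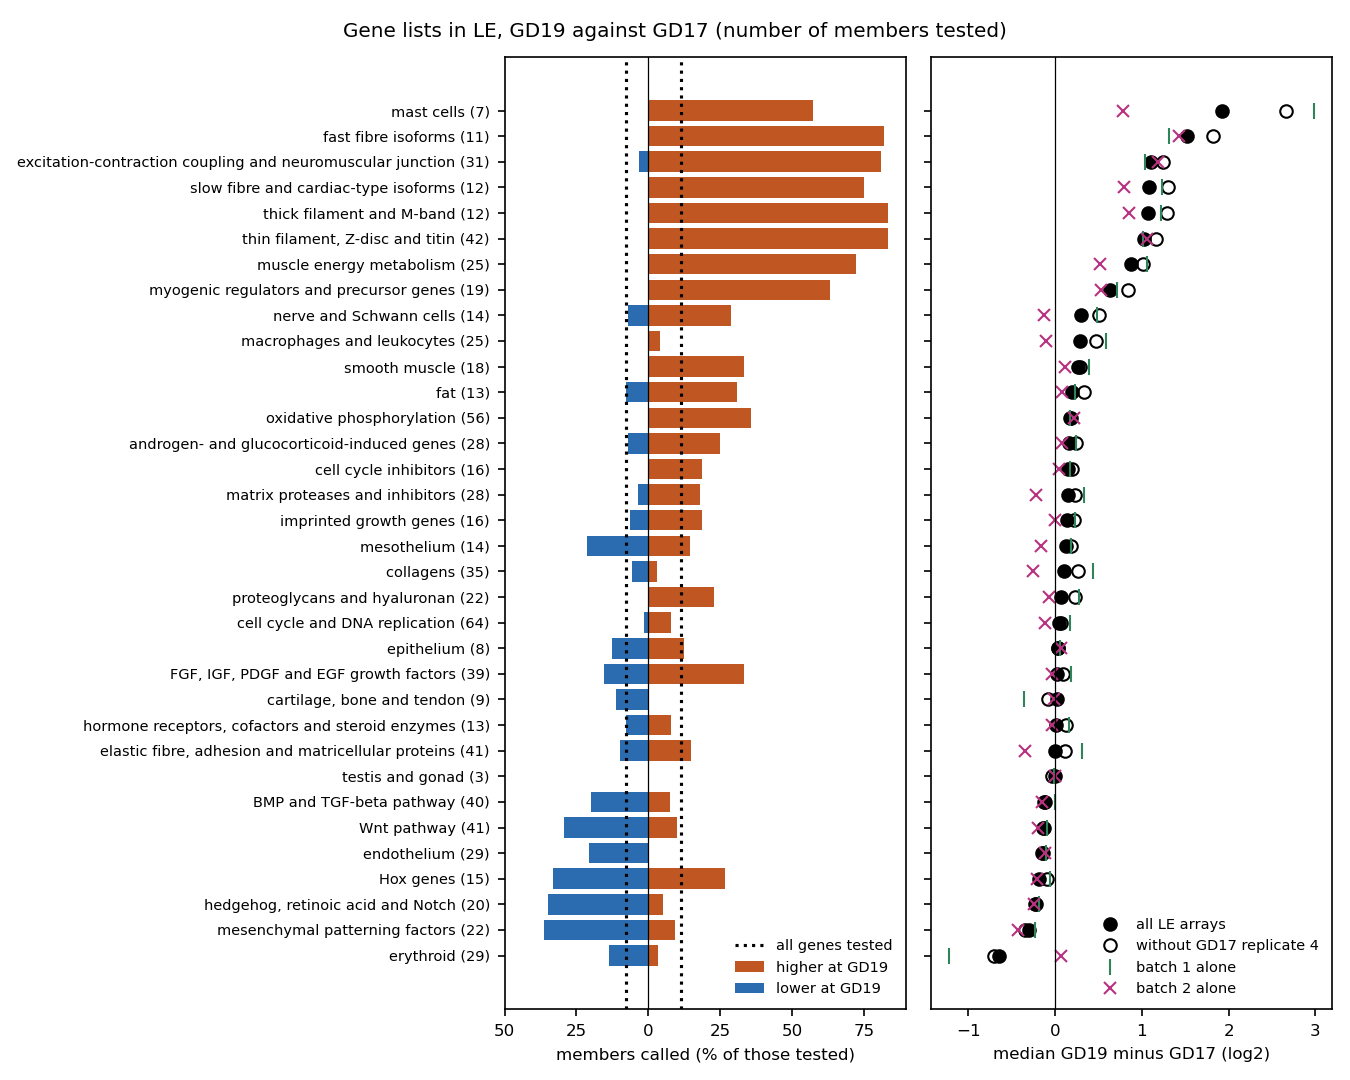
Left, the percentage of tested members of each gene list called higher (right of 0) or lower (left of 0) at GD19, with dotted lines at the 11.3% and 7.88% of all genes tested; right, the median difference of each list (log2) with all LE arrays, without GD17 replicate 4 and within each batch. Mast cell and muscle lists lie at the top, patterning lists and erythroid genes at the bottom, and the mast cell and erythroid medians differ most between batches.

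Growth factor genes moved both ways, with 13 of 39 higher and 6 lower (median 0.03), against 11.3% and 7.88% of all genes. Without GD17 replicate 5, 8 were higher. Igf1, a growth factor of mesenchyme and muscle, was bright at 13.92, 13.84, 13.80, 13.60 and 14.00 and then from 13.09 to 13.54 (median 13.31), and it fell by 0.55 ± 0.09 (adjusted p 0.000344) with groups apart. Igfbp6, a binding protein with preference for IGF2, went from 10.11, 10.38, 10.61, 11.58 and 10.54 to values from 11.66 to 11.82 (median 11.69), a difference of 1.07 ± 0.19. The receptor genes Fgfr2 and Pdgfrb fell by 1.05 ± 0.18 and 0.54 ± 0.11, both with groups apart. Cxcl12, the chemokine that attracts CXCR4-bearing muscle precursors, differed by -1.14 ± 0.23, and Kitlg, the ligand of the KIT receptor, by -0.62 ± 0.10. The growth hormone receptor Ghr rose by 0.67 ± 0.15, and the ligand Pdgfa by 0.42 ± 0.07.

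Among hormone receptors and their cofactors, 1 of 13 tested rose and 1 fell, against 11.3% and 7.88% of all genes. The glucocorticoid receptor Nr3c1 differed by -0.08 ± 0.07 (adjusted p 0.442). Of 28 androgen- or glucocorticoid-induced genes 7 rose and 2 fell (median 0.16), against the same shares, and 4 rose without GD17 replicate 5. The glucocorticoid target Fkbp5 stood at 8.22, 8.04, 8.11, 8.58 and 8.31 and then from 8.55 to 8.86 (median 8.68), a difference of 0.43 ± 0.09 (adjusted p 0.00304), 0.62 in batch 1 and 0.18 in batch 2. Klf15 and Pdk4, regulators of fuel use in muscle, rose by 1.26 ± 0.26 and 1.20 ± 0.27, with GD17 replicate 4 inside the GD19 range in both. Angptl4, an inhibitor of lipoprotein lipase, fell by 1.48 ± 0.28.

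Collagen gene calls depended on the setting. Of 35 in the list 1 rose, the crosslinking enzyme gene Lox, and 2 fell, Col11a1 and Col13a1, against 11.3% and 7.88% of all genes. The median was 0.11, with 0.44 in batch 1 and -0.25 in batch 2. With the span slope as a covariate 8 rose and 1 fell (median 0.38), where 7.33% of all genes rose. Without GD17 replicate 4, 6 rose and 2 fell, and 0 rose without any one of GD17 replicates 1, 2 or 5 or GD19 replicates 1, 2 or 5. Col1a1, the main chain of type I collagen, was at 14.04, 14.00, 14.17, 14.66 and 13.72 and then from 13.42 to 14.73 (median 14.45), a difference of 0.14 ± 0.23 (adjusted p 0.721). The transmembrane collagen gene Col13a1, found at the neuromuscular junction, fell by 1.47 ± 0.26 (adjusted p 0.000539). Has2, which makes the hyaluronan that swells the gubernaculum, was at 9.40, 9.72, 9.53, 9.79 and 9.51 and then from 9.6 to 10.23 (median 9.77), a difference of 0.23 ± 0.10 (adjusted p 0.12).

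Single matrix genes made large changes in both directions. The microfibril gene Mfap5 stood at 4.89, 5.82, 5.61, 10.04 and 3.73 and then from 8.77 to 10.77 (median 9.37), a difference of 3.53 ± 0.77 (adjusted p 0.00313). GD17 replicate 4 was above 5 of the 6 GD19 arrays, the other GD17 arrays were below all of them, and without it the difference was 4.66. Cd44, the hyaluronan receptor, rose by 2.31 ± 0.38, again with replicate 4 in the GD19 range. Fibronectin (Fn1) went from 12.67, 12.71, 13.07, 12.77 and 12.63 to values from 11.60 to 12.47 (median 12.14), a difference of -0.70 ± 0.20 (adjusted p 0.0211) with groups apart; it was not called without GD17 replicate 3 or with the span slope as a covariate (adjusted p 0.175). Ltbp1, which stores TGF-beta in the matrix, fell by 1.00 ± 0.17 with groups apart.

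Few division genes changed. Of 64 cell cycle and DNA replication genes 5 rose and 1 fell (median 0.05), below the 11.3% and 7.88% of all genes. Cell cycle inhibitors were not below the share that rose: 3 of 16 rose and 0 fell, against the same 11.3% and 7.88%. Without any one of GD17 replicates 1, 2 or 3 or GD19 replicates 1 or 3, 2 or 3 division genes rose. The inhibitors that rose numbered 6 without GD17 replicate 4, where 12.5% of all genes rose, 5 without GD19 replicate 5 and 1 without GD17 replicate 5. The proliferation antigen Mki67 was at 10.44, 10.09, 9.54, 10.69 and 9.50 and then from 10.12 to 10.74 (median 10.41), a difference of 0.38 ± 0.31 (adjusted p 0.434). Top2a, the topoisomerase of dividing cells, differed by 0.02 ± 0.11 (adjusted p 0.928). Ccne1, cyclin E, rose by 0.44 ± 0.07 (adjusted p 0.000201) with groups apart. Cdkn1a, the inhibitor p21 that rises as myoblasts leave the cycle, rose by 0.79 ± 0.21 (adjusted p 0.0121), a call lost without GD17 replicate 5 and with the span slope as a covariate (adjusted p 0.0631). Cdkn1c, the inhibitor p57, was already at 15.17, 15.20, 15.33, 15.36 and 15.23 and then from 15.25 to 15.38 (median 15.35), a difference of 0.07 ± 0.05 (adjusted p 0.403).

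Of 16 imprinted growth genes tested 3 rose and 1 fell, Impact, against 11.3% and 7.88% of all genes. Without GD17 replicate 4, 5 rose, where 12.5% of all genes rose. Igf2, the fetal growth factor, and H19, the noncoding RNA beside it, were among the brightest genes and differed by 0.07 ± 0.09 (adjusted p 0.652) and 0.01 ± 0.11 (adjusted p 0.956). Ndn, necdin, rose by 0.54 ± 0.08 with groups apart (adjusted p 0.000116). Dlk1, a Notch-like ligand of muscle and fat precursors, differed by 0.68 ± 0.32 without passing (adjusted p 0.151), and without GD17 replicate 4 it rose by 1.01 (adjusted p 0.0151).

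The largest fall among called genes was in a globin. Hbz, the embryonic zeta globin of primitive red cells, stood at 13.91, 13.61, 11.02, 9.61 and 11.89 at GD17 and from 5.81 to 8.78 (median 7.11) at GD19, a difference of -4.81 ± 0.93 (adjusted p 0.00119) or 28-fold, with groups apart. Hbe1, the epsilon globin, went from 15.55, 15.49, 14.96, 14.47 and 15.12 to values from 12.89 to 14.16 (median 13.10), a difference of -1.81 ± 0.40, also with groups apart. Hbg1, the gamma globin, fell by 2.59 ± 0.63 (adjusted p 0.00714), with 1 GD19 array inside the GD17 range. Hbb, the definitive beta globin, was at 16.18, 16.21, 15.89, 15.95 and 16.05 and then from 15.98 to 16.16 (median 16.02), a difference of -0.01 ± 0.07 (adjusted p 0.928), near the top of the scale where differences can be compressed. Alas2, the heme synthesis enzyme of red cells, ran from 10.44 to 13.46 at GD17 and 10.91 to 12.46 at GD19, with -0.19 ± 0.46 (adjusted p 0.819). Hbb and Alas2 were named after their values were seen. In the whole erythroid list 4 of 29 genes fell, the 3 globins and Gypc, and 1 rose, Ank1, against 7.88% and 11.3% of all genes. The list's mean level ran from 8.16 to 10.91 at GD17 and 8.19 to 9.70 at GD19. The median difference of the list was -0.64, but -1.22 in batch 1 and 0.06 in batch 2. Without GD17 replicate 3, 8 fell. The part of red cell content in the globin falls was not tested beyond these values.

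The promoters of the 2 globin genes with separate groups are shown for the short motifs that erythroid promoters are known for, with CACCC and CCAAT in capitals (either strand), as the 250 bases before the gene start from RefSeq (GRCr8).
Hbz: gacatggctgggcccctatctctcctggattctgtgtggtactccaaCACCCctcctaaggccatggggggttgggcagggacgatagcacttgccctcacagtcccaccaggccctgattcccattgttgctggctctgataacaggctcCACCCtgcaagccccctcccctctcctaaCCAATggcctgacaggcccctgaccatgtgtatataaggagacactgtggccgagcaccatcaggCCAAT
Hbe1: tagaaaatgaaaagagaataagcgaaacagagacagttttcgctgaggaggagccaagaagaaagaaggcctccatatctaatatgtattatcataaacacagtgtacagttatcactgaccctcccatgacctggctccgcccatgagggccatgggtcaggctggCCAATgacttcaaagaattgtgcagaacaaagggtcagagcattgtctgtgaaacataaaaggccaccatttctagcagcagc
They lie at chr10:15849758-15850007 (minus strand) and chr1:167696281-167696530 (minus strand). Hbz held 2 copies of CACCC and 2 of CCAAT, and Hbe1 held 1 CCAAT and 0 CACCC, where CACCC was in 49.2% and CCAAT in 34.0% of 33469 promoters, and in 56.2% and 35.8% of the 8046 promoters of tested genes. AGATAA, one form of the GATA factor motif, was also searched and was in neither window, against 10.3% and 5.31% of these promoters. Other forms were not searched. One of them, TGATAA, can be read in both printed windows, in Hbe1 on the other strand, so the absence of AGATAA does not mean that GATA motifs are absent.

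Mast cell genes rose. Of 7 tested 4 rose and 0 fell (median 1.93), against 11.3% and 7.88% of all genes. The carboxypeptidase Cpa3 stood at 4.83, 4.78, 5.31, 8.73 and 6.91 at GD17 and from 8.06 to 9.21 (median 8.64) at GD19, a difference of 2.53 ± 0.63 (adjusted p 0.00819). The batch 2 arrays, replicates 4 and 5, were the highest at GD17, and the difference was 3.79 in batch 1 and 0.79 in batch 2. The tryptase Tpsab1 went from 3.28, 2.46, 2.54, 5.31 and 2.54 to values from 5.41 to 6.45 (median 5.70), a difference of 2.54 ± 0.68, and the chymase Cma1 from 4.86, 4.09, 4.04, 6.16 and 5.05 to values from 6.36 to 7.2 (median 6.71), a difference of 1.90 ± 0.44; groups were apart for both. For Tpsab1 4 of the 5 GD17 arrays were under 4, near the floor, so the size of its rise is uncertain. The receptor genes that define the lineage, Kit and Ms4a2, were too dim to test. The mean level of the list ran from 4.41 to 5.74 on the GD17 arrays without replicate 4, was 8.04 on replicate 4, and ran from 6.63 to 7.73 at GD19.

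**Figure D4:**
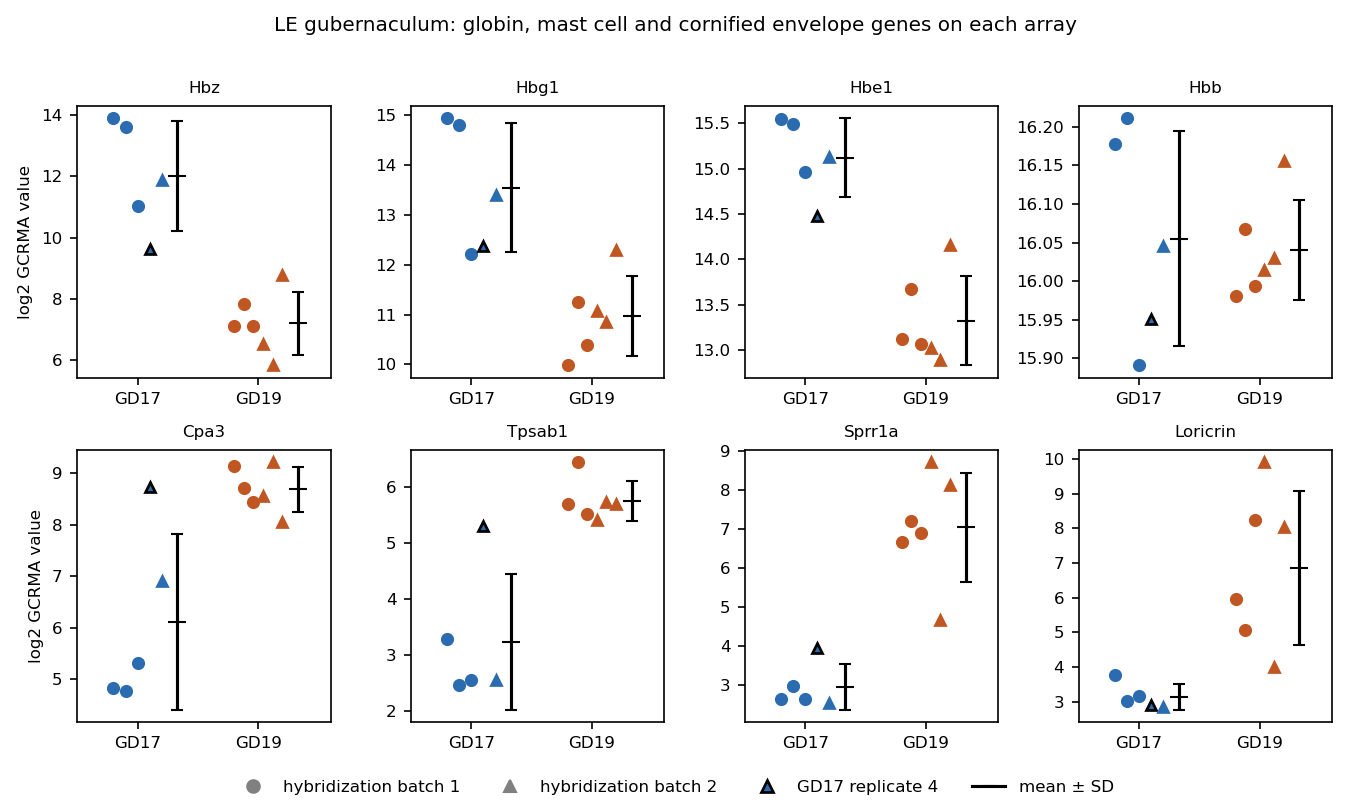
Log2 values (y axis) of 4 globin genes, 2 mast cell genes (Cpa3, Tpsab1) and 2 cornified envelope genes (Sprr1a, Loricrin) on each LE array at GD17 and GD19 (x axis), with mean ± SD beside the points; circles are batch 1, triangles batch 2, and the outlined triangle is GD17 replicate 4. Hbz and Hbe1 fell with separate groups, Hbb spans a narrow range, and the rises of Sprr1a and Loricrin spread widely over the GD19 arrays.

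Other cell type lists are given against 11.3% of all genes higher and 7.88% lower. Of 25 macrophage and leukocyte genes 1 rose, and of 29 endothelial genes 6 fell and 0 rose (7 and 3 without GD17 replicate 4). Of 14 nerve and Schwann cell genes 4 rose and 1 fell (3 fell without GD17 replicate 4). Of 18 smooth muscle genes 6 rose and 0 fell. Risen members of that list include Des, Casq2 and Synpo2, which also belong to the skeletal muscle lists, so this count is not separate from the rise given there. In the mesothelium list 2 of 14 genes were higher and 3 lower. The surface genes Upk1b and Msln rose by 2.36 ± 0.37 and 1.92 ± 0.47, and GD17 replicate 4 lay in the GD19 range for both. The 3 that fell were Bnc1, Cdh3 and Aldh1a2, the last given above, so the list did not move as 1 group. In the fat list, with 4 of 13 higher and 1 lower, Fabp4, the lipid carrier of fat and endothelial cells, rose by 1.49 ± 0.32; Adipoq, a defining gene of fat cells, was at the floor on every LE array. The liver transcripts Afp and Ttr, looked at after their values were seen, ran from 2.88 to 13.76 and from 2.80 to 12.32 over the LE arrays, with the highest values on GD17 replicate 4 (13.76 and 12.32).

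The largest rises outside muscle included genes of cornifying skin. Sprr1a, a cornified envelope protein, stood at 2.65, 2.96, 2.64, 3.96 and 2.54 and then from 4.66 to 8.72 (median 7.05), a difference of 4.10 ± 0.55 (adjusted p 0.000111). Loricrin, the main envelope protein, went from 3.77, 3.03, 3.17, 2.92 and 2.85 to values from 4.0 to 9.90 (median 7.0), a difference of 3.69 ± 0.87 (adjusted p 0.00524; 0.0516 with the span slope as a covariate). Both were below 4 on all GD17 arrays, and setting those arrays to 4 gives rises of at least 8.27-fold and 7.3-fold. The largest of all was LOC100363236, from 2.27 to 2.63 at GD17 and from 5.74 to 10.18 (median 7.73) at GD19, at least 14.5-fold. Of 8 epithelial genes tested 1 rose, Sprr1a, and 1 fell, Cdh1, against 11.3% and 7.88% of all genes. Another 16 were too dim to test. Among these, Krtdap was at most 3.11 at GD17 and reached 9.07 at GD19, with 3 LE arrays at 4 or more. Perp (highest 5.71) and Krt14 (highest 5.32) reached 4 on 1 GD19 array each. The rest, among them the basal keratin gene Krt5, stayed under 4 on every LE array. The suprabasal keratin gene Krt10, named after its values were seen, was 7.31 to 7.84 at GD17 and from 7.14 to 11.57 (median 7.50) at GD19 (difference 0.87 ± 0.60, adjusted p 0.343). The part of skin carried into the GD19 pools was not tested beyond these values. Cdh1, the epithelial cadherin, differed by -2.04 ± 0.48 with groups apart, from 2.79 to 5.22 at GD17 to values under 4 on all GD19 arrays, a fall of at least 1.28-fold.

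Other large rises were in Pla1a, Ccn3 and Entpd2. Pla1a, a phospholipase, stood at 4.81, 4.81, 4.15, 9.08 and 4.84 and then from 8.93 to 9.73 (median 9.08), a difference of 3.66 ± 0.74 (adjusted p 0.00178). Ccn3, a matricellular growth regulator, went from 5.10, 3.86, 6.49, 8.05 and 5.60 to values from 8.46 to 9.08 (median 8.58), a difference of 2.85 ± 0.50. Entpd2, an ectonucleotidase, rose by 2.69 ± 0.42. In Pla1a and Entpd2 GD17 replicate 4 lay in the GD19 range, and in Ccn3 it was just below it.

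The falls included a pair of sterol efflux pumps. Abca1 stood at 8.28, 8.37, 8.14, 6.19 and 8.27 and then from 4.95 to 6.21 (median 5.51), a difference of -2.29 ± 0.33 (adjusted p 0.000124), with both of its other probe sets called the same way. Abcg1 went from 8.33, 8.60, 8.27, 6.81 and 8.63 to values from 5.13 to 6.93 (median 6.33), a difference of -2.0 ± 0.30 (adjusted p 0.000165). GD17 replicate 4 met the GD19 range in both, and the other GD17 arrays were above it. Gfra2, the receptor for the nerve growth signal neurturin, fell by 2.05 ± 0.29, and Rit2, a small GTPase, from 6.07, 5.92, 5.55, 2.81 and 6.26 to values from 2.16 to 2.69 (median 2.42), a difference of -2.88 ± 0.48 with the GD19 arrays all under 4, or at least 2.5-fold. Pnlip, the pancreatic lipase, ran from 2.65 to 7.36 at GD17 and from 2.65 to 3.18 (median 2.67) at GD19 all under 4 (difference -2.28 ± 0.64, adjusted p 0.0163, at least 2.01-fold), a call lost without GD17 replicate 3 or 5.

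The same interval in ORL was used to ask where the LE change differed. The test of the difference between the strains' changes called 4106 of 15746 probe sets (26.1%), and by gene 1613 of 9610 were larger in LE (16.8%) and 1210 smaller (12.6%). Here and below, larger and smaller refer to the signed change (LE minus ORL), not to its size. A gene that fell more in LE therefore counts as smaller, and one that fell less as larger. With the span slope as a covariate 0 probe sets were called, with 945 at an unadjusted p under 0.05. That slope moved in opposite directions with age in the 2 strains, so as a covariate it takes up part of the same contrast, and the slope and the strain difference cannot be told apart. Batch 1 alone called 2 probe sets and batch 2 alone 1913. In the muscle lists 4 of 128 genes were larger and 14 smaller in LE, and the median change was 0.96 in LE and 1.01 in ORL. Myh3 rose by 0.53 ± 0.18 in LE and 1.74 in ORL, a difference of -1.21 (adjusted p 0.00154), and Myh7 and Neb also had the smaller change in LE (-1.80 and -2.29).

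Of 35 collagen genes 25 and of 41 elastic fibre, adhesion and matricellular genes 26 had the smaller change in LE, and 0 the larger. Median changes were 0.11 in LE and 0.91 in ORL for collagens, and -0.0027 and 1.07 for the other list. Of 22 proteoglycan and hyaluronan genes 1 had the larger change in LE and 6 the smaller. Col1a1 changed by 0.14 ± 0.23 in LE and 1.81 in ORL (difference -1.67, adjusted p 0.00125), Fn1 by -0.70 ± 0.20 and 1.00 (difference -1.70), and Fndc1, a fibronectin domain protein, by 1.94 ± 0.46 and 4.89 (difference -2.95). Oxidative phosphorylation genes went the other way, with 45 of 56 larger in LE and 0 smaller, and medians of 0.19 and -0.25. All calls of a strain difference here are lost with the span slope as a covariate.

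Of the 138 patterning and signalling genes 32 had the lower change in LE and 3 the higher. Wnt4 changed by -1.33 ± 0.23 in LE and -0.05 in ORL, a difference of -1.28 (adjusted p 0.00637). Gli2 changed by -0.57 ± 0.13 and 0.62 (difference -1.19, adjusted p 0.000372), and Igf1, from the growth factor list, by -0.55 ± 0.09 and 0.13 (difference -0.68, adjusted p 0.000998). For Hoxa10 the changes were -0.46 ± 0.09 and -0.47, and the difference of 0.01 was not called (adjusted p 0.954). Crh, corticotropin-releasing hormone, was called for a strain difference (adjusted p 0.000184), but its values were 2.21 to 5.11 at GD17 and 2.16 to 2.21 at GD19 in LE, the GD19 arrays at or near the floor, so the size of its LE change and of the strain difference was not measured. Its LE call is lost without GD17 replicate 5. Mlf1 rose by 2.35 ± 0.31 in LE against 0.26 in ORL (difference 2.10, adjusted p 0.00187).

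**Figure D5:**
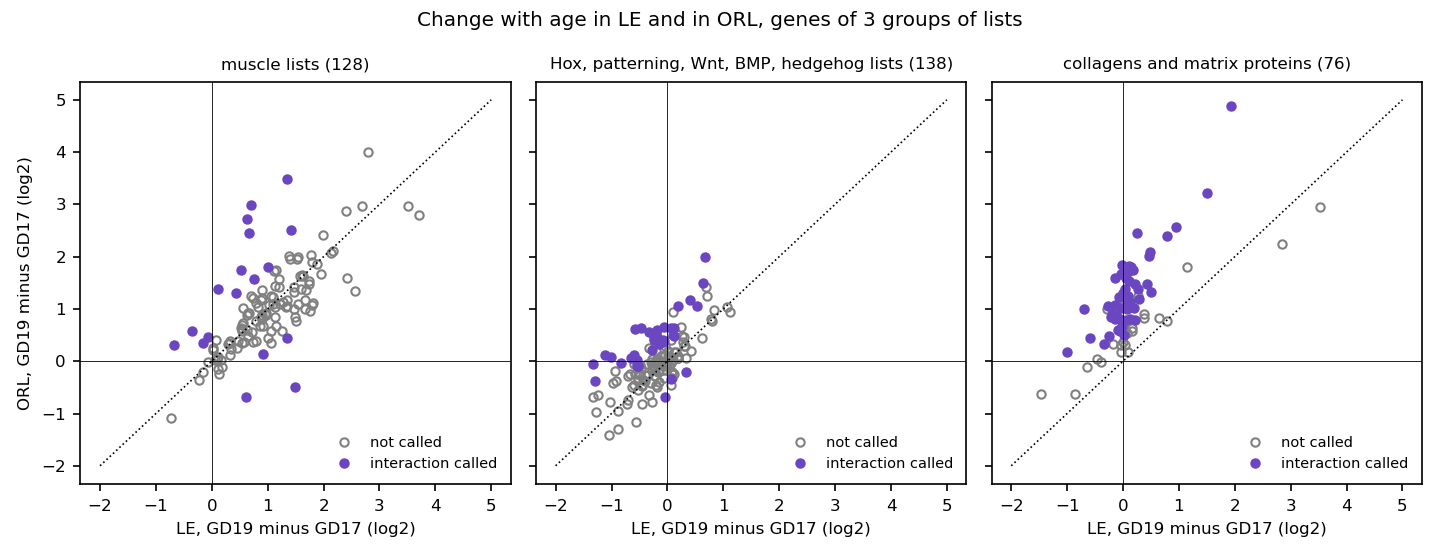
GD19 minus GD17 (log2) in LE (x axis) against ORL (y axis) for the genes of the muscle lists (128), of the patterning and signalling lists (138) and of the collagen and matrix protein lists (76); filled points were called in the test of the difference between strains, and the dotted line marks equal change. Muscle genes spread along the line, and collagen and matrix genes stand above it, near 0 in LE.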

How the data were processed

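RNA from litter-based gubernaculum pools was purified with a micro-scale kit and labelled with biotin from its 3′ end for Affymetrix rat arrays, per the labels. The deposited values are log2 expression values for 31099 probe sets on 26 arrays, which the authors computed by GCRMA (R 2.6.2, as the submitters' processing notes state). GCRMA subtracts a sequence-based background, so values near the floor carry no order. Whether all arrays were normalized together is not given in the sources used here.

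After removal of 57 control probe sets, a probe set was tested if it reached 4 on at least 5 of the 24 arrays with a known strain, which left 15746. limma 3.58.1 (R 4.3.3) fitted a mean for each strain and age, so that all 4 groups shared one estimate of the spread, with hybridization batch as a covariate. P-values were adjusted by Benjamini-Hochberg over all tested probe sets, at 0.05. A gene stands for its brightest probe set with a single symbol (9610 genes, of which 2237 had several), with symbols from the platform annotation. The procedure was tested on simulated data.

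The groups, members and gene lists were chosen with earlier results of these data known. The rule for named genes took the 12 largest called rises and falls whose batches had 1 sign, at most 5 called genes per list and direction, the 6 largest strain differences each way and genes fixed for their role. It gave 210 genes, of which the text names part. Hbb, Alas2, Afp, Ttr, Krt10, Wt1, Pdgfra and Hoxd10 were added later or as label checks. Promoters came from RefSeq tables. Alternatives were leaving out each array, single batches, LE arrays alone, another filter, scaling or threshold, the replicate number as a block and a covariate for the gene-span slope.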

Additional observations from a re-analysis of the deposited data

Results flagged for a closer look

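In 26 of 250 tests of a single array against the others of its age (Dixon's ratio, 1 test per named gene and age, plus 4 for the gene-span slope and the mean of the muscle genes), 1 LE array stood far from the rest, where chance gives about 1 in 20 for values away from the floor. GD17 replicate 4 was that array in 19 of the 26. Its log2 values were far above the other GD17 arrays for Myoz1 (8.72), Casq2 (11.38), Chrng (7.94), Myf6 (10.68), Cdh15 (10.78), Ckmt2 (6.45), Hoxd8 (9.66), Fst (10.63), Cd44 (8.24), Tpsab1 (5.31) and Pla1a (9.08), and slightly above them for LOC100363236 (2.63 against 2.27, near the floor). They were far below them for Meis2 (11.87), Crabp1 (8.81), Aldh1a2 (12.06), Ltbp1 (10.94), Rit2 (2.81), Abca1 (6.19) and Abcg1 (6.81). In every one of these cases that array lay on the GD19 side of the other GD17 arrays. That the difference between the ages keeps its sign without it follows from this position and is no separate support. Among the other 7, Myl2 stood at 4.93 in GD17 replicate 5, Hoxa10 stood at 10.78 in GD19 replicate 6, Crh stood at 2.16 in GD19 replicate 3, Top2a stood at 10.77 in GD17 replicate 2, Tpsab1 stood at 6.45 in GD19 replicate 2, Cdh1 stood at 2.16 in GD19 replicate 1 and Pnlip stood at 3.18 in GD19 replicate 6. The flags of Crh, Cdh1 and Pnlip rest on values at or near the floor, which carry no order.

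The change with age differed between LE and ORL for 4106 probe sets (limma's test of the difference, Benjamini-Hochberg adjusted). Of the 123 genes named, 33 were called. Of all tested probe sets 26.1% were called, and of all genes 16.8% were larger and 12.6% smaller in LE. The count is thus near the share over all features and is no result about the named genes. The log2 change was lower in LE than in ORL for Myh3 (-1.21), Myh7 (-1.80), Asph (-0.98), Meis2 (-0.44), Foxp2 (-1.10), Tbx18 (-0.71), Wnt4 (-1.28), Apcdd1 (-0.92), Lef1 (-0.46), Gli2 (-1.19), Igf1 (-0.68), Kitlg (-0.43), Pdgfrb (-0.88), Col1a1 (-1.67), Fn1 (-1.70), Ltbp1 (-1.17), Fndc1 (-2.95), Mki67 (-1.58), Top2a (-0.42), H19 (-0.69), Dlk1 (-1.31), Abca1 (-1.66), Neb (-2.29) and Pdgfra (-0.56). It was higher in LE for Ndufs3 (0.71), Uqcrfs1 (0.64), Crh (3.92), Ccne1 (0.46), Ndn (0.29), Sprr1a (2.25), Pnlip (2.78), Mlf1 (2.10) and Fabp4 (1.98). With the gene-span slope added as a covariate none of these 33 was called, as 0 probe sets were, and batch 1 alone called 2 probe sets and batch 2 alone 1913. The slope and the strain difference cannot be told apart. The LE GD19 arrays of Crh and Pnlip were at or near the floor, so the sizes given for them were not fully measured.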

How the results depend on the processing

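Of 182 called genes under the naming rule, 180 were called the same way without GD17 replicate 4, 177 after quantile normalization, 180 after median centring, 166 with no filter on dim probe sets, 151 with the span slope as a covariate, 145 in batch 1 alone, 141 with LE arrays alone and 1 in batch 2 alone. Leaving out GD17 replicate 4 and ORL GD19 replicate 4 together, an alternative chosen after seeing the data, kept 180. Tgfb3, called higher with all arrays, reversed to -0.0025 in batch 2 alone. The cause of these losses was not tested, beyond the fewer arrays in a batch or strain alone.

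The 2752 called probe sets became 5 in batch 2 alone (3 higher, 2 lower), 1480 with LE arrays alone (815 and 665), 1335 at an adjusted p under 0.01 (746 and 589) and 500 at 2-fold or more (345 and 155). Fewer were lower in batch 1 alone (849) and with the span slope (815). The strain difference called 2 in batch 1, 1913 in batch 2 and 0 with the span slope. Of the muscle genes 1 rose in batch 2 alone, and of the patterning and signalling genes 0 fell there and 26 with LE arrays alone. The median of the latter was -0.039 with no filter, where dim genes near the floor enter, and -0.069 in batch 1.

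Leaving out single arrays gave 2139 to 3174 called probe sets (1111 to 1699 higher, 861 to 1475 lower), 3207 to 4483 for the strain difference, 90 to 102 risen muscle genes (median 0.867 to 1.13) and 32 to 43 fallen patterning and signalling genes (median -0.202 to -0.137). With the replicate number as a block 2158 probe sets were called, 2112 of them shared with the 2752. In a check of pairing, the correlation for arrays of equal number ran from -0.20 to 0.21. It is another measure than the correlation of whole arrays given at the start, which was at least 0.944 between LE groups. In that check 1 of 5 correlated best with its own number. No pairing by number was seen, but 5 pairs are too few to settle it.

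Array number and background limit what was seen: Insl3, Esr1 and Kit were at the floor on every LE array, and Hbb was near the top of the scale.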

Other observations

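The 2 GD19 arrays of unknown strain entered no comparison. Their mean log2 level over the 128 muscle genes was 9.12 and 9.56. Myh8 stood at 8.51 and 9.22, Ckm at 12.4 and 13.0, Hbz at 8.32 and 7.76, Wnt4 at 11.7 and 10.7, and Hoxa10 at 11.5 and 11.2.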
